A study of Homo sapiens with 16 samples.

Results

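The genes described here encode the subunits of the mitochondrial respiratory chain and of ATP synthase that are carried in the nucleus. They were taken by name from the protein-coding genes of GENCODE 29: the NDUFA, NDUFB, NDUFC, NDUFS and NDUFV genes that carry a number, SDHA to SDHD, all UQCR and all ATP5 genes, and the subunit genes of the COX4I, COX5, COX6, COX7 and COX8 groups, without assembly factors. That gave 88 genes of the 31496 genes that the transcripts of the count table add up to. By name, 37 belong to complex I (NADH dehydrogenase), 4 to complex II (succinate dehydrogenase), 9 to complex III (the cytochrome bc1 complex), 17 to complex IV (cytochrome c oxidase) and 21 to complex V (ATP synthase). Names and structure differ in places: NDUFA4 counts here as complex I by its name but is now regarded as a subunit of complex IV, COX7A2L is a supercomplex factor rather than a core part of cytochrome c oxidase, ATP5IF1 is an inhibitor of ATP synthase, and ATP5MF-PTCD1 is a readthrough of neighbouring genes. UQCRHL was not analysed here, COX4I2, COX6A2 and COX7B2 did not pass the filter on low counts, and the other 84 genes were tested beside 19836 genes in all.

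The cells were HCT116, an established human colon cancer line, and the study asked what changes in gene expression and splicing follow depletion of NORAD, an abundant cytoplasmic long noncoding RNA that binds Pumilio proteins. Polyadenylated RNA was sequenced in 16 strand-specific libraries in 6 groups: wild type and NORAD knockdown by CRISPR interference at 24 h (2 libraries each), 48 h (3 each) and 96 h (3 each). CRISPR interference was induced with 0.5 µg/ml doxycycline, a step the labels give for every sample, so wild-type libraries too may come from cells given the drug. No label says whether the knockdown cells are a single clone or whether replicates were separate cultures, and the tests below see library-to-library variation alone, possibly of technical origin.

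The respiratory chain passes electrons from NADH (complex I) and succinate (complex II) through complexes III and IV to oxygen, and ATP synthase uses the proton gradient that results. Its subunits come from both genomes: the mitochondrial DNA encodes a small set of core subunits, and all others, complex II included, are nuclear. The nuclear genes are known targets of the transcription factors NRF1, GABP (an ETS family factor), YY1 and SP1 and of the PGC-1 family of coactivators, and proliferating colon cancer cells express most of them at high levels.

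Promoter windows from RefSeq (GRCh38.p14) were found for 70 of the 88 genes. The sequences show what the best-known regulatory motifs look like in genes that moved in different directions: the 150 bases before the start of SDHD (chr11:112086723-112086872, plus strand) and SDHB (chr1:17054033-17054182, minus strand), both lower in the libraries labelled knockdown at 24 h and 48 h, of UQCRFS1 (chr19:29213152-29213301, minus strand), which was higher at 48 h and 96 h, and of ATP5MC1 (chr17:48892637-48892786, plus strand), which had the lowest p of the genes that fell at 24 h. Capitals mark matches, on either strand, to the consensus NRF1 motif, the ETS motif CCGGAAG and the YY1 motif AAGATGGC.
SDHD: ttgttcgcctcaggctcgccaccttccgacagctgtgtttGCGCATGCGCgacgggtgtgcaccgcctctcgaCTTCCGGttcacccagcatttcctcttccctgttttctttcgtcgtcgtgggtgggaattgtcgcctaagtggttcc
SDHB: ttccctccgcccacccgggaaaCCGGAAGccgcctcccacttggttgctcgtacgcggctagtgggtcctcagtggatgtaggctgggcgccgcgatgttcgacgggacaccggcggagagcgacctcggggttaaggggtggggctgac
UQCRFS1: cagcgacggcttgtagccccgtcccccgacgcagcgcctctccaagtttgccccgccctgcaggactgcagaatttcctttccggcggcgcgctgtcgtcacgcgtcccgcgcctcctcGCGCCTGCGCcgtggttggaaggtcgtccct
ATP5MC1: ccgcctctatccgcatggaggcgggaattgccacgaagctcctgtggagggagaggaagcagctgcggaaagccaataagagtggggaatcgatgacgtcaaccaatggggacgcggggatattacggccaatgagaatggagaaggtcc
The printed SDHD window holds an NRF1 and an ETS match, the SDHB window an ETS match (its YY1 match lies outside the printed bases) and the UQCRFS1 window an NRF1 match, while none of the 3 motifs is in the printed ATP5MC1 window. Over the whole windows of 300 bases (250 before and 50 after the start), the NRF1 motif was in 24.3% of the 70 genes, against 11.4% of 12730 tested genes and 7.0% of all 27305 genes with a window. The ETS motif was in 21 of the 70, against 19.2% and 12.2%, and the YY1 motif in 17.1%, against 5.5% and 3.5%. The SP1 motif GGGCGG was in 62.9%, against 71.7% of tested genes and 48.3% of all. These are counts of letters, not of bound sites.

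Pumilio proteins bind the RNA motif UGUANAUA, which bears on these genes because NORAD binds the same proteins. In the annotated 3' UTR of each gene's most abundant coding transcript the motif was found in 7 of 84 genes (8.33%), against 25.34% of 14958 other tested genes. The UTRs of the respiratory chain genes are short, with a median of 188 bases against 997. Among UTRs no longer than the third quartile of these genes, the motif was in 2 of 63 of them (3.17%) and in 5.56% of 4320 other genes. Those 2 sets still differed in length, with medians of 133 and 230 bases. They held 0.197 sites per kb, from 2 sites alone, and 0.267 sites per kb, and the difference was not tested. The sites of ATP5PB (a peripheral stalk subunit), NDUFS3 and NDUFV2 (core subunits of complex I) and COX6B2 (the testis form of COX6B) are shown with the motif in capitals.
ATP5PB: aagaaaaauccUGUAGAUAaauuagaaaau
NDUFS3: uugaguguccgUGUAAAUAaauuccuacuu
NDUFV2: uuauauugaacUGUAAAUAugucacuagag
COX6B2: aaaaaugugcaUGUAAAUAuauacucucaa
The other 3 genes with the motif are NDUFA9, NDUFS1 and SDHC. Of the 7, ATP5PB, NDUFA9, NDUFS1, NDUFS3 and NDUFV2 were lower at 24 h, by 0.33 to 0.45 on the log2 scale. At that time 42 of all 84 respiratory chain genes and 12.4% of all tested genes were lower, and NORAD was not. At 48 h ATP5PB, NDUFS3, NDUFV2 and SDHC were lower, where 25 of all 84 genes and 18.5% of all tested genes were. COX6B2 was higher, where 3 of all 84 genes and 14.8% of all tested genes were. Whether the motif has a part in these changes was not tested.

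NORAD itself checks the labels. It stood at 179 and 201 CPM (counts scaled to a common library size with TMM factors) in the 24 h wild-type libraries and at 229.7 and 188 in the 24 h libraries labelled knockdown, so it was not lower there. At 48 h it was at 155 to 162 in wild type and 18.1 to 24.8 in knockdown, and at 96 h at 181 to 184 and 66.1 to 79.9. Libraries held 28391784 to 51853876 counts. The epithelial markers EPCAM, CDH1, KRT8, KRT18 and KRT19 stood at 63.7 CPM or more in every library, while the intestinal markers CDH17 and CEACAM5 had medians of 0.577 and 0.564 CPM. Markers of blood, vessel, stroma, muscle and liver cells reached at most 6.24 CPM, except CD68 (8.69 to 52.1 CPM) and COL1A1 (33.6 to 79.5 CPM), with PTPRC, CD3E and COL3A1 near 0. The summed epithelial markers were at 7238 to 7689 CPM in 24 h wild type and 6046 to 6617 in the libraries labelled knockdown, at 6530 to 6826 and 4041 to 4870 at 48 h, and at 4522 to 4967 and 5338 to 5627 at 96 h. The summed markers of other cells were at 112 to 133 and 128 to 130 CPM, at 48.4 to 50.8 and 81.9 to 101 CPM, and at 62.4 to 73.4 and 78.5 to 89.2 CPM. The share of counts on retained-intron transcripts, over genes other than the respiratory chain, was 5.60% and 6.07% in the 24 h knockdown-labelled libraries against 5.20% and 4.95% in wild type. At 48 h it was 5.74%, 5.30% and 4.18% in knockdown replicates 1, 2 and 3, against 4.05% to 4.26% in wild type, so that the third knockdown library stood with wild type. The part of the markers and of retained introns in the results on the respiratory chain was not tested.

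Most of these genes were highly expressed. Of the 84 tested, 78 lay above the median of all tested genes and 53 in the top 10%, with a median of 116.5 CPM against 8.66 CPM. Together they took 1.11% to 1.30% of all counts. On a per-length scale (TPM, counts divided by transcript length and scaled to a common total), the level in 48 h wild-type cells had a median of 89.8 over complex I genes, 78.0 over complex II, 197 over complex III, 228 over complex IV and 225 over complex V. COX4I1, the main form of a large structural subunit of cytochrome c oxidase, was the most abundant at 849.5 ± 23.5 TPM (SD, n = 3), followed by COX6A1 at 578 ± 24.4 TPM. The lowest tested were COX7A1, the muscle and heart form of COX7A, at 0.05 ± 0.06 TPM (SD, n = 3), and COX8C, the testis form of COX8, whose mean was 0.11 TPM.

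At 24 h some genes of each of the 5 complexes were lower in the libraries labelled knockdown, although NORAD was not. Of 84 tested genes, 42 fell by edgeR's quasi-likelihood test (Benjamini-Hochberg adjusted p under 0.05) and 0 rose, where 12.4% of all tested genes fell and 5.14% rose. At an unadjusted p under 0.05, 59 were lower and 0 higher, and DESeq2 gave 42 and 0. The median log2 fold change was -0.30, against -0.02 over all genes tested. The count was 8 lower and 2 higher under total-count scaling, 11 and 1 under abundance-dependent scaling and 12 and 0 without knockdown-labelled replicate 2. The fall was counted in 20 of 37 complex I genes, 2 of 4 in complex II, 6 of 8 in complex III, 3 of 14 in complex IV and 11 of 21 in complex V. In 74 of the 84 genes both knockdown-labelled libraries lay below both wild-type libraries, and in 4 both lay above, where 32.9% of all tested genes were apart as lower and 26.8% as higher. In bulk RNA such as this, fewer transcripts per cell and fewer cells that express a gene cannot be told apart.

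**Figure D1:**
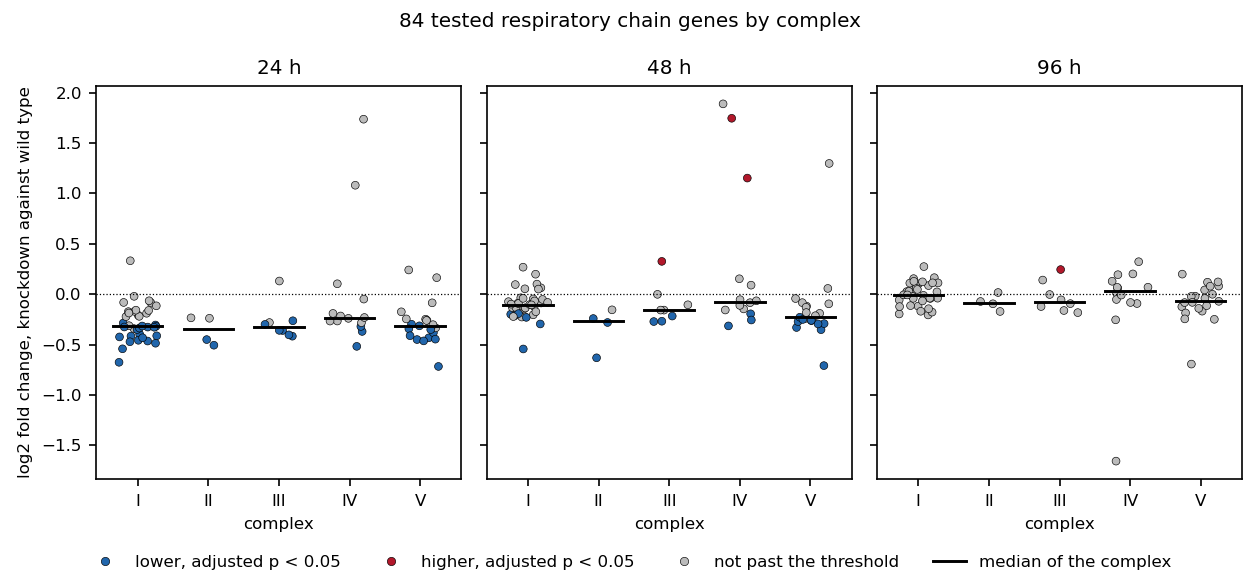
Log2 fold change of knockdown against wild type (vertical axis) for the 84 tested genes by complex (horizontal axis) at 24 h, 48 h and 96 h. Each point is a gene, blue points passed the test as lower and red points as higher, grey points did not pass, and the black bar is the median of the complex. The medians of all 5 complexes lie between -0.34 and -0.24 at 24 h and close to 0 at 96 h.

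Within complex I, 5 of 7 core subunits, which carry the electrons, and 15 of 30 accessory subunits fell at 24 h. NDUFA10, an accessory subunit of the membrane arm (ENSG00000130414.11, chr2:239892450-240025402 in GRCh38), was at 131 and 126 CPM in wild type and at 93.0 and 90.9 CPM in the libraries labelled knockdown. The groups did not overlap, and the change was -0.49 ± 0.07 (log2, SE) with an edgeR adjusted p of 0.000113. NDUFB10, an accessory subunit of the membrane arm (ENSG00000140990.14, chr16:1959508-1961975), was at 175 and 167 CPM in wild type and at 123 in both knockdown-labelled libraries, a change of -0.47 ± 0.09 (adjusted p = 0.000833). Other complex I genes that fell include NDUFS6 (-0.54 ± 0.11), a small subunit that binds zinc, NDUFB6 (-0.47 ± 0.09) and the core subunits NDUFS7 (-0.43 ± 0.09) and NDUFS1 (-0.34 ± 0.09). NDUFA13, the only complex I gene with a positive value, did not pass (0.33, adjusted p = 0.18).

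In complex II the iron-sulfur subunit SDHB and the membrane anchor SDHD fell at 24 h. SDHB (ENSG00000117118.9, chr1:17018722-17054170) was at 114 and 109 CPM in wild type and at 81.8 and 81.4 CPM in the knockdown-labelled libraries, with no overlap (-0.45 ± 0.09, adjusted p = 0.000997). The flavoprotein SDHA (-0.24, adjusted p = 0.11) and the second anchor SDHC (-0.23, adjusted p = 0.091) did not pass. In complex III the core proteins UQCRC1 (-0.42 ± 0.09) and UQCRC2 (-0.36 ± 0.10) and the small subunits UQCRH, UQCR11, UQCRQ and UQCR10 fell. UQCRFS1, the Rieske iron-sulfur protein, had a value of 0.13 (adjusted p = 0.40), and UQCRB one of -0.28 (adjusted p = 0.50).

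In complex IV, COX5A, COX4I1 and COX5B fell at 24 h, and 11 of 14 genes did not pass. COX5A, a structural subunit (ENSG00000178741.11, chr15:74919791-74938168), was at 175 and 168 CPM in wild type and at 121 and 119 CPM in the knockdown-labelled libraries, a change of -0.52 ± 0.10 (adjusted p = 0.000899). COX4I1 changed by -0.37 ± 0.09 and COX5B by -0.32 ± 0.10, and the groups did not overlap in either.

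In ATP synthase, 4 of 5 F1 subunits, 3 of 4 peripheral stalk subunits, 2 of 3 genes of the membrane ring and 2 of 6 other membrane subunits fell at 24 h. ATP5MC1 (ENSG00000159199.13, chr17:48892765-48895871), which encodes subunit c of the rotating ring, had the lowest p of all 84 genes. It was at 111 and 109.9 CPM in wild type and at 60.9 and 73.3 CPM in the knockdown-labelled libraries. The groups stood well apart, with a change of -0.72 ± 0.10 and an adjusted p of 7.21e-05, which is a fold of 0.608. The catalytic pair of the F1 head, ATP5F1A (-0.43 ± 0.10) and ATP5F1B (-0.38 ± 0.10), fell as well, and the inhibitor ATP5IF1 did not pass (-0.09, adjusted p = 0.59).

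**Figure D2:**
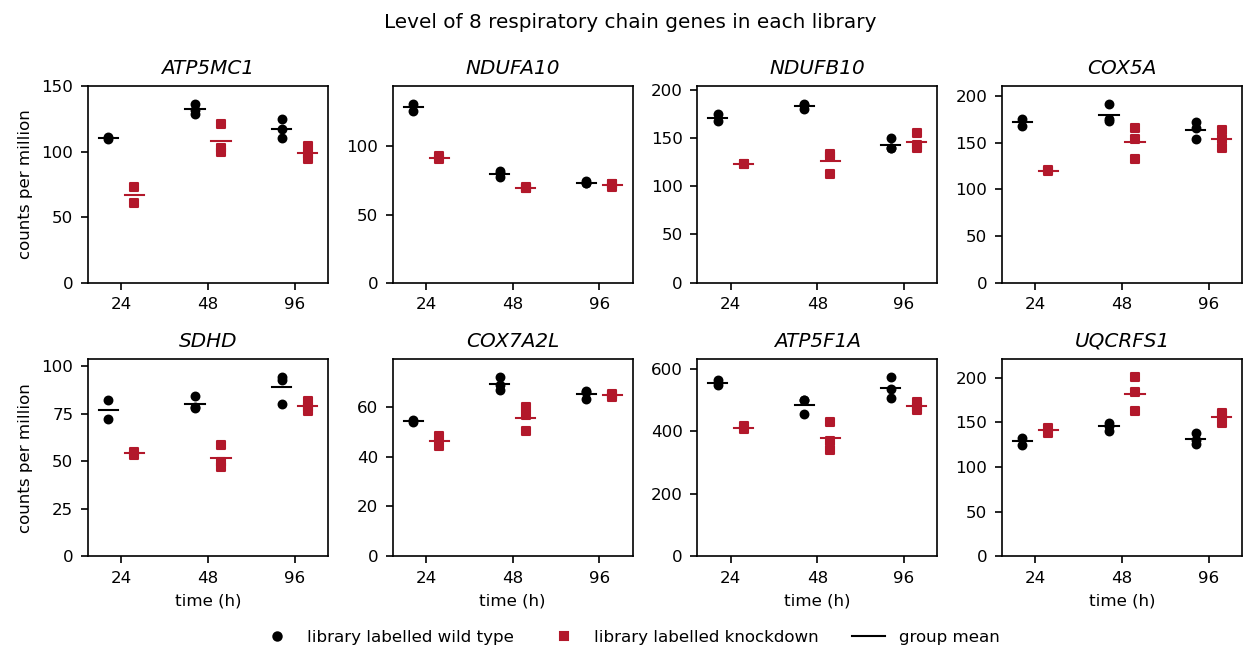
Level in CPM (vertical axis) of 8 genes in each library by time in hours (horizontal axis). Black circles are wild-type libraries, red squares are libraries labelled knockdown and short lines are group means. At 24 h the red squares of the genes shown other than UQCRFS1 lie below the black circles, and at 96 h NDUFB10, COX5A, SDHD and COX7A2L overlap.

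At 48 h, when NORAD was low, fewer of the genes were lower and the spread between complexes was wider. Of 84 tested, 25 fell (18.5% of all tested genes fell) and 3 rose (14.8% of all rose), with a median log2 fold change of -0.13 against 0.06 over all genes. In 27 genes all knockdown libraries lay below all wild-type libraries and in 4 above, where 20.3% and 16.9% of all tested genes were apart in these directions. By complex, 6 of 37 genes fell in complex I, 3 of 4 in complex II, 3 of 8 in complex III, 3 of 14 in complex IV and 10 of 21 in complex V. The comparisons at 24 h and 48 h share no library: 20 genes fell in both, which is 47.6% of those that fell at 24 h and 80.0% of those that fell at 48 h. Over all tested genes 1836 fell in both, which is 74.5% and 50.1%. The 5 genes called lower at 48 h and not at 24 h were COX7A2L, SDHC, ATP5PD, ATP5MD and ATP5MF-PTCD1. Without knockdown replicate 1 the counts were 10 lower and 2 higher, where 13.9% and 10.8% of all tested genes were. Without knockdown replicate 2 they were 34 lower and 2 higher, where 16.1% and 12.5% of all tested genes were. Knockdown replicate 3 was the library that stood with wild type in retained introns. Without it the counts were 30 lower and 6 higher, where 23.9% and 20.9% of all tested genes were.

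The gene with the lowest p at 48 h was NDUFB10, at 184, 180.2 and 185 CPM in wild type and 112, 131 and 134 CPM in knockdown. All knockdown libraries lay below all wild-type libraries, with a change of -0.54 ± 0.07 (adjusted p = 8.27e-06). SDHD (ENSG00000204370.10, chr11:112086773-112120013), a membrane anchor of complex II that helps form its ubiquinone site, was at 84.1, 78.3 and 77.9 CPM in wild type and 46.8, 49.6 and 58.7 CPM in knockdown, again apart, for a change of -0.63 ± 0.09 (adjusted p = 1.12e-05) and a fold of 0.646. COX7A2L (ENSG00000115944.14, chr2:42333546-42425088), which helps tether complexes III and IV to each other, was at 68.9, 67.0 and 71.9 CPM in wild type and 50.4, 56.5 and 60.1 CPM in knockdown (-0.31 ± 0.07, adjusted p = 0.00184). These 3 genes kept their call under each of the 25 other settings tried.

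ATP5F1A, the alpha subunit of the F1 head (ENSG00000152234.15, chr18:46080248-46104334), was at 499, 456 and 500.0 CPM in 48 h wild type and 339, 370.1 and 431 CPM in knockdown. The groups did not overlap and the change was -0.35 ± 0.08 (adjusted p = 0.00198), but it was -0.12 (adjusted p = 0.139) under abundance-dependent scaling. The peripheral stalk subunits ATP5PB (-0.30 ± 0.08), ATP5PD (-0.26 ± 0.07) and ATP5PF (-0.25 ± 0.07) fell together, and ATP5PO had a value of -0.18 (adjusted p = 0.063).

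UQCRFS1 went the other way. This gene for the Rieske protein of complex III (ENSG00000169021.5, chr19:29205321-29213541) was at 146, 141 and 149.8 CPM in 48 h wild type and at 163, 184 and 201 CPM in knockdown, all knockdown libraries being higher (0.33 ± 0.07, adjusted p = 0.00204). At 96 h it was at 130.0, 139 and 126 CPM against 149, 160.1 and 158 CPM, again without overlap (0.24 ± 0.07, adjusted p = 0.038). At 24 h it was at 125 and 133 against 138 and 144 CPM, in the same direction but past no threshold (adjusted p = 0.40). The 48 h call held under every setting tried, and the 96 h call was lost under 12 of 25, leaving out single libraries of 24 h, 48 h or 96 h among them (adjusted p up to 0.157).

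At 96 h, with NORAD at 66.1 to 79.9 CPM in knockdown, few of the genes passed the test. By edgeR, 0 of 84 fell and 1, UQCRFS1, rose (5.15% and 5.35% of all tested genes). At an unadjusted p under 0.05, 8 were lower and 5 higher, both smaller shares than those of all tested genes. DESeq2 gave 3 and 3, where 8.46% and 9.68% of all genes it tested were. The median log2 fold change was -0.02 against -0.01 over all genes, and the median SE of a gene was 0.08. The groups were apart as lower in 10 genes and as higher in 9, where 15.6% and 16.2% of all tested genes were. ATP5MC1 was at 125, 110.3 and 117 CPM in wild type and 94.2, 105 and 98.1 CPM in knockdown, apart but not past the threshold (-0.25, adjusted p = 0.058). The mean of the 48 h and 96 h effects was tested against the 24 h effect: 1 of 84 genes, NDUFA10, differed upward (0.55% of all genes) and 0 downward (0.262%). At an unadjusted p under 0.05, 37 differed upward and 0 downward, where 1470 and 584 of all 19836 tested genes did. DESeq2 gave 2 upward, where 1.385% of all genes it tested were.

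How many genes count as lower depended on how the libraries were scaled to each other. In 24 h wild type the TMM factors were 0.967 and 0.989, and in the knockdown-labelled libraries of that time 1.11 and 1.15. At 24 h total-count scaling moved the median of all genes from -0.02 to 0.19 and upper-quartile scaling moved it to 0.10, and the 84 genes moved with them: their median lay 0.28 below that of all genes under TMM, total-count and upper-quartile scaling alike. The counts were 42 lower and 0 higher under TMM, 36 and 0 with DESeq2 size factors, 20 and 1 under upper-quartile, 8 and 2 under total-count and 11 and 1 under abundance-dependent scaling, which lets the scale vary with a gene's level and left the genes 0.08 below all genes. At 48 h they were 25 and 3, 29 and 2, 8 and 7, 5 and 10, and 4 and 9 in the same order. Of all tested genes 12.48% were lower and 22.4% higher at 48 h under upper-quartile scaling. The shares were 10.8% and 23.9% under total-count scaling, and 14.2% and 13.97% under abundance-dependent scaling. Under each of these scalings the 84 genes were called less often than all genes, in both directions. Total-count and upper-quartile scaling shift all genes alike, and the median of the 84 genes lay 0.20 below that of all genes at 48 h under TMM, total-count and upper-quartile scaling. Under abundance-dependent scaling it lay 0.02 above. Leaving out a single 24 h library gave 21 lower without knockdown-labelled replicate 1, 12 without knockdown-labelled replicate 2, 21 without wild-type replicate 1 and 23 without wild-type replicate 2. In the same order 6.60%, 4.48%, 7.41% and 6.18% of all tested genes were lower. At 24 h ATP5MC1, COX5A, NDUFA10, NDUFB10, NDUFS6 and SDHB stayed called under all 25 settings, and under the 4 other scalings SDHD did as well. The sizes shrank: under total-count scaling NDUFA10 changed by -0.28, NDUFB10 by -0.26 and COX5A by -0.31.

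**Figure D3:**
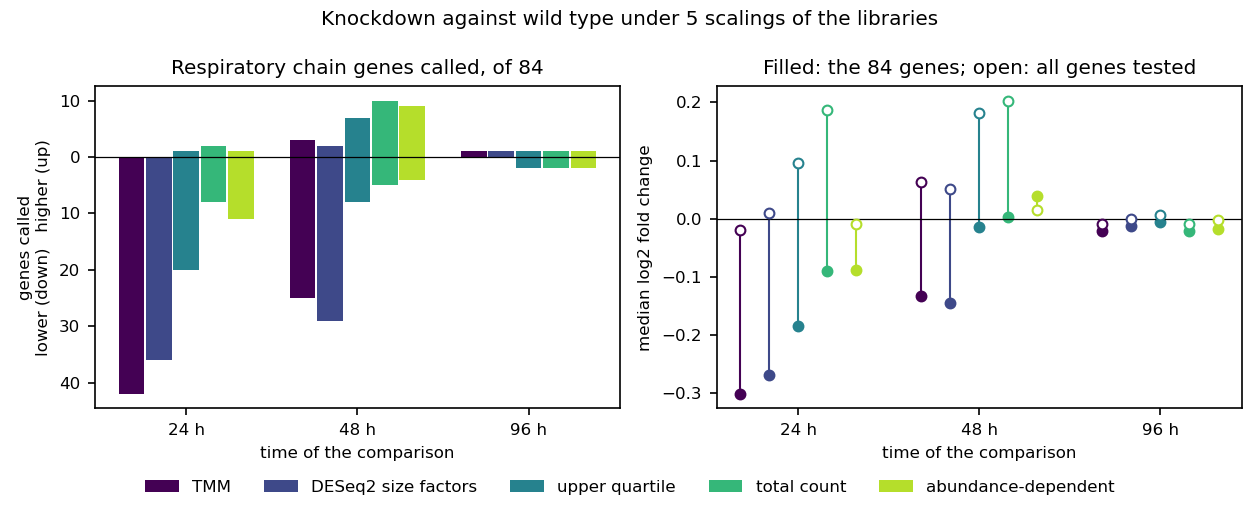
Left, genes called lower (bars down) and higher (bars up) of 84 at each time under 5 scalings, by colour; right, the median log2 fold change of the 84 genes (filled) and of all genes tested (open) under the same scalings. At 24 h the filled points lie below the open ones under every scaling, and at 48 h they lie above under abundance-dependent scaling only.

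Subunit c of ATP synthase is made from 3 genes, ATP5MC1, ATP5MC2 and ATP5MC3, that encode the same mature protein behind different import sequences. Their balance moved with time and label (shares of the 3 genes' summed CPM, not divided by length). ATP5MC1 held 14.2% and 14.7% in 24 h wild type and 10.3% and 12.0% in the libraries labelled knockdown, and 15.7% to 16.96% and 14.2% to 14.7% at 96 h, with no overlap at either time. At 48 h it held 18.8% to 19.9% in wild type and 15.7% to 19.2% in knockdown, which overlap. ATP5MC2 was at 245 and 222 CPM at 24 h, 135, 139.8 and 148 CPM at 48 h and 227, 226 and 210.0 CPM at 96 h in wild type, so its 48 h libraries lay below all others. It fell from 24 h to 48 h by 0.73 on the log2 scale (adjusted p = 1.08e-06) and rose again by 0.65 ± 0.08 (adjusted p = 1e-06). ATP5MC3, the most counted of the 3, fell at 24 h in the knockdown-labelled libraries (-0.31 ± 0.10, adjusted p = 0.041).

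**Figure D4:**
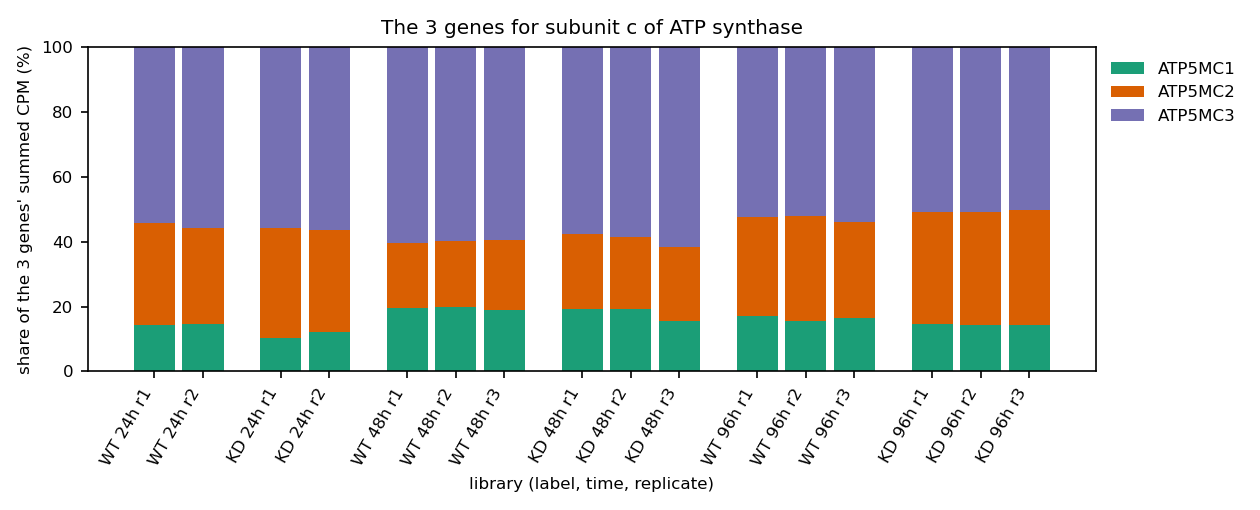
Share of the summed CPM of the 3 subunit c genes (vertical axis, percent) held by ATP5MC1 (green), ATP5MC2 (orange) and ATP5MC3 (purple) in each of the 16 libraries (horizontal axis). The ATP5MC1 share is lowest in the 24 h libraries labelled knockdown (10.3% and 12.0%), and the ATP5MC2 share is lowest in 48 h wild type (20.1% to 21.6%).

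Wild-type libraries of different times differed in these genes in both directions. From 24 h to 48 h, 18 of 84 fell and 16 rose, shares close to those of all tested genes (22.1% and 22.5%), and from 48 h to 96 h, 31 fell and 9 rose (22.7% and 23.7% of all). Time, length of exposure to the drug and any difference in handling between time points cannot be told apart. Both steps share the 48 h libraries, and those libraries are also the controls of the 48 h knockdown, so the values are given side by side. NDUFS1, the largest core subunit of complex I, went from 65.8 and 69.6 CPM to 35.0, 32.9 and 36.3 CPM and then to 40.5, 41.8 and 39.6 CPM. Its first step was -0.96 ± 0.08 (adjusted p = 6.02e-09), the lowest p of any of these genes at that step. NDUFA10 fell from 131 and 126 to 81.9, 77.8 and 80.8 CPM (-0.68 ± 0.07) and stood at 73.0 to 74.5 CPM at 96 h. NDUFA7, an accessory subunit, fell from 83.5 and 77.2 CPM to 44.8, 48.0 and 45.4 CPM (-0.80 ± 0.09) and came back to 80.2, 74.8 and 71.1 CPM (0.71 ± 0.08).

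Other complex I genes did the reverse. NDUFS3, a core subunit, rose from 87.2 and 82.2 CPM to 121, 115 and 115 CPM (0.47 ± 0.08) and then fell to 71.7, 72.4 and 70.1 CPM (-0.72 ± 0.07, adjusted p = 2.27e-08). NDUFB9 (0.54 ± 0.09, then -0.54 ± 0.08) and NDUFS6 (0.56 ± 0.10, then -0.49 ± 0.09) did the same, and NDUFA9 rose by 0.30 ± 0.08 and fell by 0.73 ± 0.07. UQCRC2 followed NDUFA7: it was at 147 and 151 CPM at 24 h, at 104 to 122 CPM at 48 h and at 149 to 171 CPM at 96 h (0.48 ± 0.08 for the second step). By complex, 18 of 37 complex I genes and 9 of 21 complex V genes fell from 48 h to 96 h, and none of 4 complex II genes passed in either direction. Upper-quartile scaling gave 17 lower and 18 higher in the second step, with the median of the 84 genes 0.13 below that of all genes, as under TMM. Abundance-dependent scaling gave 13 lower and 24 higher, with the median 0.03 above. Of all tested genes 18.9% were lower and 28.7% higher under upper-quartile scaling, and 23.3% and 24.7% under abundance-dependent scaling.

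Tissue forms of complex IV subunits were close to absent. COX6A2 (muscle) had at most 2 counts in a library, COX7B2 at most 2, COX4I2 (lung) at most 6, COX7A1 at most 14 and COX8C (testis) at most 15, while their common partners COX6A1, COX7B, COX4I1, COX7A2 and COX8A had at least 10531, 3931, 15096, 1369 and 8081 counts. COX6B2 was the exception among tissue forms with 37 to 175 counts. At 48 h it was at 1.12, 1.30 and 1.71 CPM in wild type and 3.25, 4.03 and 1.89 CPM in knockdown, with no overlap (1.15 ± 0.25, adjusted p = 0.00133), and this call held under every setting tried. Wild type was at 3.43 and 2.63 CPM at 24 h and 2.62 to 2.76 CPM at 96 h, so its 48 h libraries were the low ones. The wild-type steps were -1.13 ± 0.28 and 0.96 ± 0.25 (edgeR adjusted p = 0.00232 and 0.00325). The 48 h knockdown values span those of wild type at the other times. At 48 h the common form COX6B1 did not pass (-0.07, adjusted p = 0.56). COX8C also passed at 48 h (1.75 ± 0.69, adjusted p = 0.049), on 2, 1 and 3 counts in wild type against 13, 7 and 4 in knockdown, and this call was lost under 21 of the 25 other settings. NDUFA4L2, the hypoxia-linked relative of NDUFA4 that the naming rule leaves out, had 14 to 82 counts against 3688 to 9427 for NDUFA4.

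Transcript usage within these genes gave no call that held under more than a single method. By edgeR's diffSpliceDGE, 1 of 76 tested genes (COX6C) was called at 24 h, 3 (ATP5F1A, ATP5F1B and UQCR11) at 48 h and 3 (UQCRC1, SDHC and NDUFC2) at 96 h, against 1.56%, 4.07% and 1.53% of all genes. That test called too many genes on simulated data, where a limma test of each transcript's log ratio to the rest of its gene did not. By the limma test 0 of 49 genes were called at each time (0.611%, 0.711% and 0.1% of all genes), with 4, 6 and 2 at an unadjusted p under 0.05 and lowest adjusted p values of 0.136, 0.208 and 0.975. The main transcript of ATP5F1A, ATP5F1A-202, held 85.1% and 77.5% of the gene's counts in knockdown replicates 1 and 2 at 48 h and 92.4% in replicate 3, against 90.8% to 93.0% in wild type. UQCRC1 was called at 96 h and not at 48 h. Its retained-intron transcript UQCRC1-207 held 17.7%, 21.8% and 10.3% in the same 48 h libraries against 9.83% to 10.8%. In both genes the third 48 h knockdown library lay with wild type. In 80 of 84 genes the most counted transcript is annotated as protein coding; in COX6C it is COX6C-206, annotated as a target of nonsense-mediated decay, with 81.7% to 91.3% of the gene's counts.

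The wider programme of mitochondrial genes was counted in lists. Of 61 assembly factors of the 5 complexes, 26 fell at 24 h, 33 at 48 h and 6 at 96 h, when 2 rose. Of all tested genes 12.4%, 18.5% and 5.15% fell at these times, and 5.35% rose at 96 h. The 96 h counts in this list and those that follow are small, and were not tested against these shares. NDUFAF2 of complex I changed by -0.91 ± 0.10 at 24 h, BCS1L of complex III by -0.68 ± 0.11, and COA7 of complex IV by -0.997 ± 0.10 at 48 h, while SDHAF4 of complex II rose by 0.44 ± 0.12 at 96 h. Of 17 regulators of respiratory gene expression, 11 fell at 24 h, 12 at 48 h and 2 at 96 h, among them the mitochondrial helicase TWNK (-0.62 ± 0.08 and -0.85 ± 0.06 at 24 h and 48 h), the packaging factor TFAM (-0.63 ± 0.11 at 24 h, -0.35 ± 0.09 at 96 h) and the coactivator PPARGC1B (-0.90 ± 0.09 at 48 h). Of 18 genes of the tricarboxylic acid cycle and pyruvate dehydrogenase, 9 fell at 24 h, 9 at 48 h and 3 at 96 h, when IDH2 rose (0.27 ± 0.09). Fumarase FH was at -0.57 ± 0.11 at 24 h and DLAT at -0.72 ± 0.12 at 48 h. Under the 4 other scalings and DESeq2, the counts lower at 48 h ran from 27 to 34 of 61 assembly factors and from 9 to 13 of 17 regulators. They ran from 4 to 31 of the 84 subunits, where 10.8% to 19.5% of all tested genes were lower, and no test compared the lists.

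Cytochrome c (CYCS), the cytochrome c1 subunit of complex III (CYC1) and the carrier protein NDUFAB1, which the naming rule leaves out, all fell at 24 h (-0.62 ± 0.10, -0.49 ± 0.09 and -0.49 ± 0.09) and at 48 h (-0.45 ± 0.08, -0.38 ± 0.08 and -0.39 ± 0.07). Of the 13 mitochondrially encoded subunits, 1 rose at 24 h, 3 at 48 h and 1 at 96 h, when 1 fell (5.14%, 14.8% and 5.35% of all tested genes rose). MT-CYB, the cytochrome b of complex III, rose at all 3 times (0.44 ± 0.10, 0.45 ± 0.09 and 0.58 ± 0.09), MT-ATP6 and MT-ND1 rose at 48 h and MT-CO1 fell at 96 h (-0.36 ± 0.09). Under abundance-dependent scaling 9 of 13 rose at 24 h and 9 at 48 h, where 6.78% and 13.97% of all tested genes rose. Counts of these 13 genes under the other scalings are not given here. Mitochondrially encoded mRNA took 4.89% and 5.05% of counts in 24 h wild type and 6.08% and 6.10% in the libraries labelled knockdown, 10.4% to 11.1% and 12.3% to 13.8% at 48 h, and 15.5% to 16.6% and 14.8% to 17.4% at 96 h. In wild type, 13 of 13 rose from 24 h to 48 h and 10 from 48 h to 96 h. Of 61 assembly factors, 41 rose and 2 fell in the first step, and 39 fell and 4 rose in the second. Of all tested genes 22.5% rose and 22.1% fell in the first step, and 23.7% rose and 22.7% fell in the second. The nuclear subunits, as given above, were split in the first step.

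**Figure D5:**
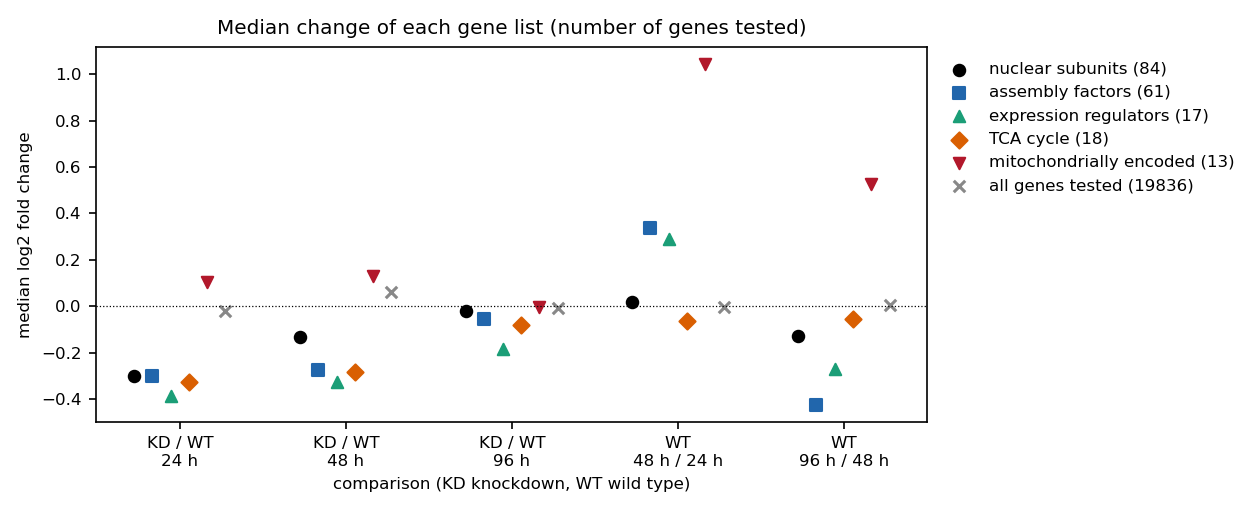
Median log2 fold change (vertical axis) of 5 gene lists and of all genes tested in 5 comparisons (horizontal axis): knockdown (KD) against wild type (WT) at 3 times, and wild type at 48 h against 24 h and 96 h against 48 h. Symbols mark the lists, with the number of genes tested in brackets. The mitochondrially encoded genes (red triangles) lie at 1.04 and 0.53 in the wild-type steps, and the nuclear subunits (black circles) at 0.02 and -0.13.

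Counts of some of these genes are uncertain because reads can match more than a single gene. A pseudogene named after the gene exists for 45 of the 88 genes, 33 overlap another gene on the same strand and 44 on the opposite strand. Of the genes given in full, ATP5MC1, ATP5F1A, UQCRFS1 and SDHD have 7, 7, 3 and 3 named pseudogenes, SDHD overlaps TIMM8B on the other strand, and ATP5MF overlaps ATP5MF-PTCD1 on the same strand. When only transcripts annotated as protein coding were summed, 29 of 83 genes were lower and 1 higher at 24 h, against 13.1% and 6.77% of all genes in that fit. At 48 h 14 were lower and 4 higher, against 17.9% and 17.1%, so the count lower was no larger than the share of all genes. At 96 h 1 was lower and 1 higher, against 7.25% and 7.17%.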

How the data were processed

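Estimated counts per transcript for 16 libraries were deposited by the authors; kallisto, DESeq2 and the build hg19 are named, without versions, per the submitters' processing notes. The role of each is not given in the sources used here. Of 166096 transcripts, 156584 matched GENCODE 29 (GRCh38) by identifier and were summed into 31496 genes; the 9512 others held 2.75% to 3.40% of a library's counts and were left out. Sums were rounded to whole numbers.

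Genes passing edgeR's filter on low counts (19836) were fitted in all 6 groups with TMM scaling and edgeR's quasi-likelihood test (edgeR 4.0.16, R 4.3.3), on 10 residual degrees of freedom, with Benjamini-Hochberg adjustment and a threshold of 0.05. SE is the standard error of the log2 fold change. Levels are CPM, or per length for comparisons between genes. Transcript usage was tested with diffSpliceDGE and, added after the data were seen, with limma 3.58.1 on log ratios (prior count 0.5). Tests were tested on simulated data. Alternatives were DESeq2 1.42.0, other scalings, no filter, coding transcripts only, fits of the compared libraries only, a replicate block, and leaving out each library.

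Values in every library were given for up to 4 genes per direction with the lowest p among those called with a mean of at least 5 CPM in each knockdown comparison, up to 3 per direction in each wild-type step, the extremes of level and tissue isoform pairs. Other lists gave up to 4 genes per time. SDHB, NDUFS1 at later times and a few further genes were shown for their role after their values were seen. The genes and lists were chosen with earlier results of these data known.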

Additional observations from a re-analysis of the deposited data

Results flagged for a closer look

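NDUFA10, an accessory subunit of complex I, was the gene for which a test of the difference between times passed: the mean of its 48 h and 96 h knockdown effects lay 0.37 ± 0.08 (log2, SE) above its 24 h effect (adjusted p = 0.0386 by edgeR's quasi-likelihood test with Benjamini-Hochberg adjustment over 19836 genes). Its 24 h effect was -0.49 and its 48 h effect -0.20. The call was lost under 20 of 24 other settings, with adjusted p from 0.00169 to 0.54, and NORAD was not lower in the 24 h libraries labelled knockdown.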

How the results depend on the processing

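Counts of called genes moved with the processing, and the cause was not tested. At 24 h (42 lower, 0 higher) there were 11 lower and 1 higher under abundance-dependent scaling, 8 and 2 under total-count scaling, 20 and 1 under upper-quartile scaling, 26 lower with no filter, and 1 higher with only the libraries compared and with coding transcripts only. At 48 h (25 and 3) there were 4 and 9, 5 and 10, and 8 and 7 under those scalings, 8 lower with only the libraries compared and 14 with coding transcripts only. Each of these alternative 48 h counts was a smaller share than that of all genes in the same fit. At 96 h (0 and 1) there were 3 and 3 by DESeq2, 3 and 5 with only the libraries compared, 1 lower with coding transcripts only, and 2 lower under each of the 3 scalings. These alternative 96 h counts were also smaller shares than those of all genes in the same fits. From 24 h to 48 h in wild type (18 lower) there were 11 with no filter (14.1% of all genes) and 30 with only the libraries compared (27.8%). From 48 h to 96 h (31 and 9) there were 13 and 24 under abundance-dependent scaling (23.3% and 24.7% of all genes). Upper-quartile scaling gave 17 and 18 (18.9% and 28.7%), and total-count scaling 17 higher (27.5%). The difference between times (1 gene) gave 2 by DESeq2 (1.385% of all genes were higher) and 0 with DESeq2 size factors, the 3 other scalings and no filter.

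Leaving out 1 library gave 12 to 54 lower and 0 to 0 higher at 24 h, 10 to 34 and 2 to 6 at 48 h, 0 to 3 and 0 to 2 at 96 h, 10 to 21 and 10 to 19 from 24 h to 48 h, 21 to 36 and 8 to 13 from 48 h to 96 h, and 0 to 5 for the difference between times. Of all genes 4.48% to 15.9% were lower and 2.17% to 7.13% higher at 24 h. The shares were 13.9% to 23.9% and 10.4% to 20.9% at 48 h, and 2.96% to 7.61% and 3.04% to 7.87% at 96 h. They were 15.7% to 24.6% and 15.4% to 25.3% from 24 h to 48 h, and 19.1% to 25.4% and 20.6% to 25.9% from 48 h to 96 h. For the difference between times 0.0727% to 1.41% were higher. Transcript usage by diffSpliceDGE (1, 3 and 3 genes) ranged from 0 to 1, 0 to 5 and 0 to 3 over the libraries left out, and was 0 at each time by limma and over transcripts with at least 10% of their gene.

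With the replicate number as a block, 34 genes were lower at 24 h, 19 lower and 2 higher at 48 h, 0 higher at 96 h and 0 for the difference between times, and usage gave 0 at 24 h and 1 at 96 h. Of all tested genes 9.43% were lower at 24 h with this block. At 48 h 15.8% were lower and 10.6% higher, and at 96 h 3.61% were higher. The replicate numbers did not pair the libraries: correlations of same-numbered libraries ran from -0.263 to 0.062. Of 574 values of single genes under other settings, 541 kept their direction and call, 33 lost the call and none of these reversed. With 2 libraries a group at 24 h and a median SE of 0.0989, small changes were not detectable.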
